A study of Mus musculus with 6 samples.

Results

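The genes described here are the mouse heat shock proteins and DNAJ cochaperones, taken as every protein-coding row of the deposited count table whose symbol begins with Hspa, Hspb, Hspd, Hspe or Hsph, or with Dnaja, Dnajb or Dnajc followed by a digit. They number 68 of 23122 genes, of which 26 are heat shock protein (HSP) genes and 42 are DNAJ genes. By symbol the HSP genes comprise 13 HSPA genes (HSP70), 8 HSPB genes (small heat shock proteins) and the mitochondrial chaperonin pair Hspd1 and Hspe1. The others are Hsph1, an HSP110 gene, and 2 genes named for binding to HSPs (Hspbap1 and Hspbp1). Families follow the symbol alone, so HSPB includes Hspb11, a part of the intraflagellar transport machinery. The DNAJ genes comprise 4 of type A, 12 of type B and 26 of type C. HSP90 genes carry other symbol stems and enter below only as companions.

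The samples were 6 tumors of CT26, a colon carcinoma line of BALB/c origin, grown under the flank skin of female BALB/c mice aged 6 to 8 weeks from 500000 injected cells. Mice were randomized at tumor volumes of 100 to 200 mm3 and received either vehicle (3 tumors) or TP-18 by mouth at 50 mg/kg once daily for 3 weeks (3 tumors). The series title names TP-18 a dual antagonist of EP2 and EP4, which are receptors for prostaglandin E2, and both groups carried the same tumor line in hosts with an intact immune system. The labels do not say whether each sample came from its own mouse, so p-values measure the spread between these samples, which may be partly technical.

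The 6 libraries held between 34813482 and 36489081 counts. A level is either a CPM value, the count scaled to library size after TMM scaling, a scaling of library sizes that allows for differences in composition, or an FPKM value where genes are compared with each other, since FPKM divides by gene length. Of 5 epithelial markers 2 were abundant enough to test. Epcam had 0, 0 and 0.062 CPM in the vehicle tumors and 0.188 to 0.615 CPM in the TP-18 tumors, so this epithelial marker was near or at 0 in tumors of a carcinoma line. T cell markers were called higher with TP-18 in 6 of 6 tested genes, macrophage markers in 2 of 7, skeletal muscle markers in 7 of 12 and B and plasma cell markers in 2 of 2. Red blood cell markers were called lower in 4 of 5 and immediate early genes, which respond within minutes to handling of tissue, in 3 of 7. Of all genes tested 7.09% were called higher and 5.26% lower. In bulk tumors, fewer cells of a type and less RNA per cell cannot be told apart.

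HSP70 proteins hold unfolded stretches of client proteins and release them as they bind and hydrolyse ATP. DNAJ proteins carry a J domain that stimulates this hydrolysis and many of them deliver the client, while nucleotide exchange factors let HSP70 reset. Separate HSP70 and DNAJ proteins serve the cytosol, the endoplasmic reticulum (ER) and mitochondria. Cytosolic stress raises genes of the heat shock response through heat shock factors, and protein misfolding in the ER raises another set through the unfolded protein response. Tumor cells are known for high HSP levels.

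Promoter sequences of 57 of the 68 members were found in RefSeq (GRCm38.p6, from 250 bases before to 50 after the start). They are shown because these genes divide by the kind of stress that is known to induce them. The ER stress element, searched on both strands as CCAAT, any 9 bases and CCACG, was found in 39 of 32851 promoters, or 0.119%. Among the members it was found for Hspa5 and Dnajc3. The windows below lie before the start on the plus strand, at chr2:34772020-34772049 and chr14:118937822-118937851, with the match in capitals.
Hspa5: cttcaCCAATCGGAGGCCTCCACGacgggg
Dnajc3: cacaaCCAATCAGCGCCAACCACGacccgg

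A heat shock element of 3 units, searched on both strands as GAA, TTC and GAA with any 2 bases between neighbours, was found in 198 promoters, or 0.603%, and in those of Dnajb6, Hspd1, Hspe1 and Hsph1. The shorter pattern GAANNTTC, with N for any base, which lies inside the longer one and reads the same on both strands, was found in 2582 promoters, or 7.86%, and in those of 13 members. Hspd1 and Hspe1 are neighbours transcribed in opposite directions from a shared region, and the window printed for Hspe1 (plus strand, chr1:55088053-55088082) lies in the promoters of both, with 2 overlapping matches in capitals. The inducible HSP70 genes Hspa1b and Hspa1a lie on the minus strand of chromosome 17. Their first 150 bases before the start, at chr17:34959239-34959388 and chr17:34972157-34972306, were identical at 149 of 150 positions and share 1 short match, in capitals.
Hspe1: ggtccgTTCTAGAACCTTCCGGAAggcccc
Hspa1b: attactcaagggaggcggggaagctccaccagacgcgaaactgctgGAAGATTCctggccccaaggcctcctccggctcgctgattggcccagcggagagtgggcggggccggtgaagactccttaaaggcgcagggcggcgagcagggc
Hspa1a: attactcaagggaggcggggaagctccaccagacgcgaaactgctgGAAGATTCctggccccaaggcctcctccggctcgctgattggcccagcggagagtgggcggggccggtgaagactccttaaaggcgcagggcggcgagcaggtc

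Of the 68 members, 60 passed the filter on low counts and were tested, 23 HSP and 37 DNAJ. The other 8 were Hspa1l, Hspb3, Hspb9, Dnajb3, Dnajb7, Dnajb13, Dnajc6 and Dnajc28, with counts of at most 17 in any tumor. Hspa1l, the HSP70 gene best known from testis, had 7, 3 and 17 counts in the vehicle tumors and 4, 3 and 6 in the TP-18 tumors. Dnajc28 had 7, 4 and 3 counts against 5, 16 and 9. Hspb3, Hspb9 and Dnajb7 were at 0 in all vehicle tumors and had at most 3 counts in any TP-18 tumor.

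Among HSP genes 3 were called lower with TP-18 and none was called higher. The 3 were Hspa5 and Hspa9, the HSP70 proteins of the ER and of mitochondria, and Hspd1, the mitochondrial chaperonin HSP60. Among DNAJ genes Dnajb9, an ER cochaperone, was called lower and Dnajc13, an endosomal one, was called higher. These calls are 3 of 23 HSP genes lower, 0 of 23 higher, 1 of 37 DNAJ genes lower and 1 of 37 higher, at an adjusted p under 0.05 in the quasi-likelihood test of edgeR after Benjamini-Hochberg adjustment. Of all 14189 genes tested 5.26% were called lower and 7.09% higher, 12.4% in all, so the DNAJ counts in each direction were below those shares and the HSP count lower was above. At an unadjusted p under 0.05, 7 of 23 HSP genes were lower and 2 higher, and 10 of 37 DNAJ genes were lower and 1 higher, beside 14.6% of all tested genes lower and 15.3% higher. DESeq2 and limma-voom also called 0 HSP genes higher, but limma on log2(FPKM + 1) and on log2(FPKM + 0.1) each called 1 (Hspb2). Those 2 fits called 1424 and 1468 of all tested genes higher. By limma-voom the HSP and DNAJ calls numbered the same as by edgeR, beside 5.15% of all genes lower and 7.24% higher. DESeq2 called 6 HSP genes and 5 DNAJ genes lower, beside 8.74% of all genes, and 1 DNAJ gene higher, beside 10.3%. On log2(FPKM + 0.1), where library scaling is by total count alone, the share of all calls that were higher was 85.2% against 57.4% here.

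**Figure D1:**
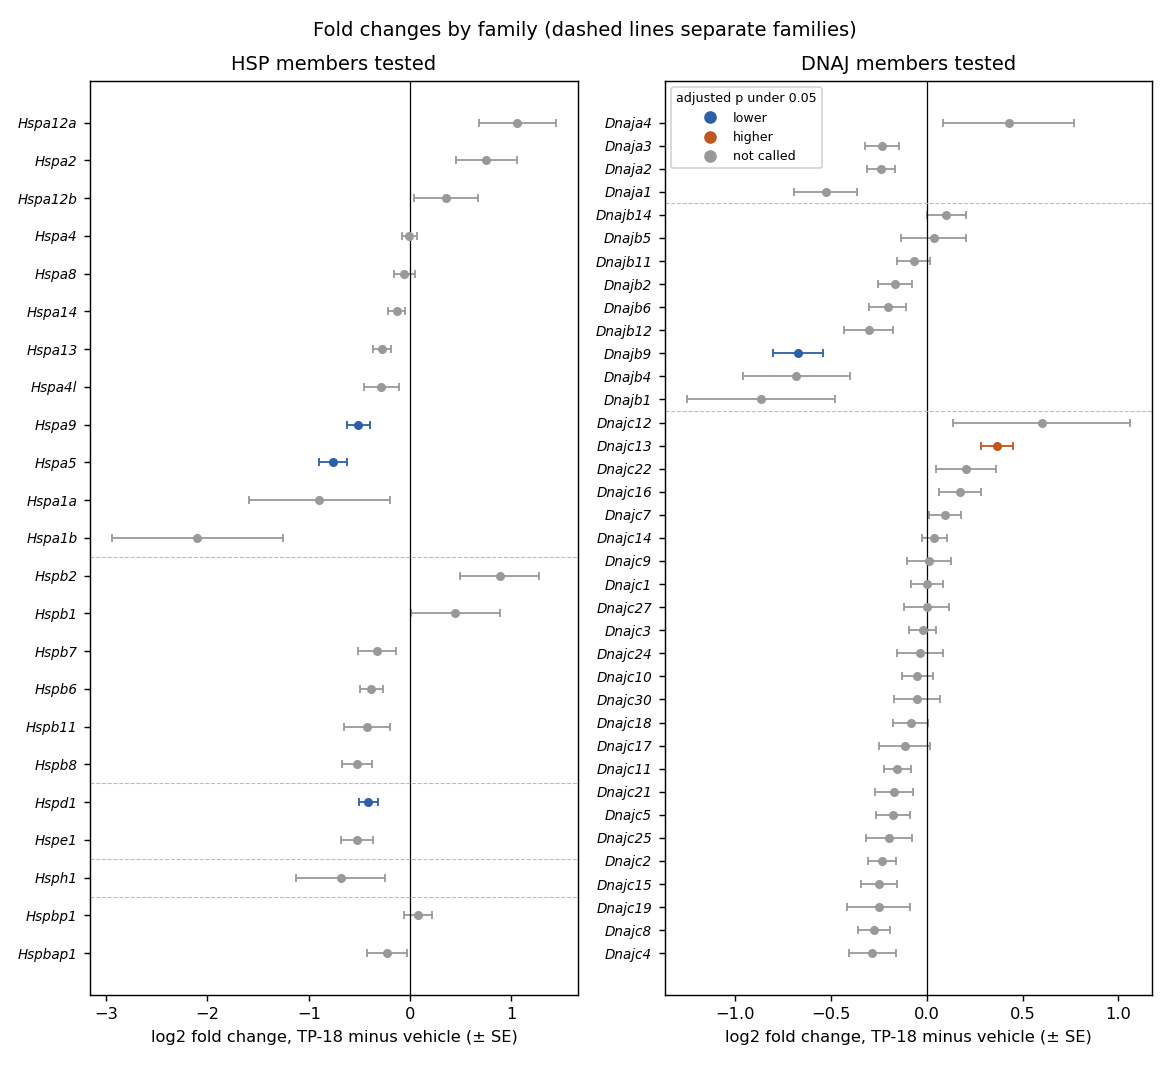
Log2 fold changes (TP-18 minus vehicle, x axis, points, with bars for ± SE) of the 23 HSP genes (left) and 37 DNAJ genes (right) tested, ordered within families separated by dashed lines. Blue marks genes called lower (3 HSP, 1 DNAJ), orange the 1 called higher, and grey the others, of which most lie left of 0.

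The log2 fold change was negative for 17 of 23 HSP genes and 26 of 37 DNAJ genes. Its median was -0.28 over HSP genes, -0.12 over DNAJ genes and -0.01 over all genes tested. On log2(FPKM + 0.1) the medians were -0.14, 0.03 and 0.13, so the DNAJ median was above 0 there, while relative to all genes it was -0.10 on that scale and -0.11 on the main one. The HSP median relative to all genes was -0.27 on both. By family the median was -0.20 over 12 HSPA genes, -0.36 over 6 HSPB genes, -0.24 over 4 DNAJA genes, -0.20 over 9 DNAJB genes and -0.05 over 24 DNAJC genes.

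In 8 HSP genes every TP-18 tumor had a lower CPM than every vehicle tumor and in 3 (Hspa12a, Hspa2 and Hspb2) every TP-18 tumor had a higher one. For DNAJ genes these counts were 10 lower and 2 higher (Dnajc13 and Dnajc16). Among all tested genes the groups did not overlap in 17.8% in the lower direction and 18% in the higher. In FPKM the counts were 3 lower and 4 higher for HSP genes and 4 lower and 5 higher for DNAJ genes, beside 7.67% lower and 27.9% higher of all tested genes. The direction of 12 of the 60 members turned with the scaling, and these include Hspa8, Hspa4, Dnajb11, Dnajc3 and Dnajc10.

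**Figure D2:**
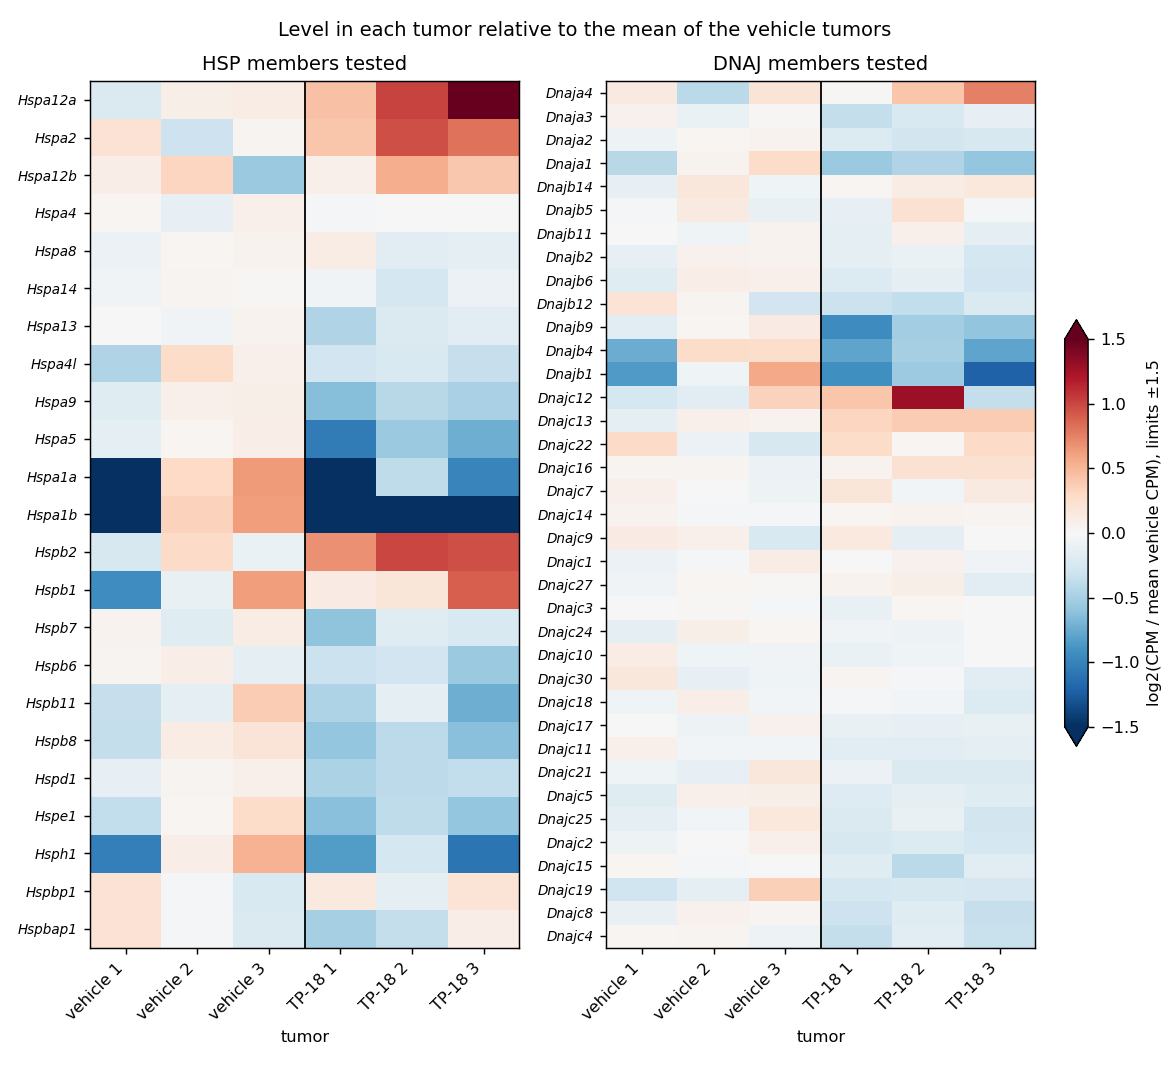
Level of each tested member in each of the 6 tumors (columns) as log2 of its CPM over the mean CPM of the vehicle tumors, on a color scale limited to ±1.5. Blue is below and red above the vehicle mean. Vehicle 1 stands with the TP-18 tumors for Hspa1b, Hspa1a, Hsph1, Dnajb1 and Dnajb4.

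Summed over all HSP genes the level ran from 6537 to 7943 CPM in vehicle and from 5323 to 5730 CPM in TP-18 tumors. In FPKM the sums were 2610, 2831 and 2898 in vehicle and 2271, 2360 and 2332 in TP-18 tumors. The DNAJ sums were 756, 770 and 796 FPKM against 720, 732 and 733 FPKM. On both scales the groups did not overlap for HSP genes, and each TP-18 tumor had the lower sum for DNAJ genes too. The HSP sums come mostly from the few abundant genes named next, while the DNAJ sums are spread over many genes.

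Per length, the most abundant members were Hspa8, the constitutive cytosolic HSP70 (780 FPKM, mean of 6 tumors), Hspa5 (580 FPKM), Hspa9 (481 FPKM), Hspd1 (271 FPKM) and Hspe1 (188 FPKM). The highest DNAJ gene was Dnaja2, a cytosolic partner of HSP70, with 66.8 FPKM, followed by Dnajc8, which is associated with splicing, with 60.6 FPKM, and Dnaja1 with 51.6 FPKM. Within the HSPA family Hspa8 made up 35.4% ± 1.07 of the FPKM in vehicle and 44.7% ± 5.32 in TP-18 tumors (SD, n = 3 each). Hspa5 made up 32.8% ± 0.32 and 25.3% ± 3.92, and Hspa9 25.3% ± 0.61 and 23.3% ± 1.43. These shares are descriptions and were not tested.

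Hspa5 encodes BiP, the main chaperone of the ER lumen and a classic target of the unfolded protein response. Its level was 1764, 1971 and 2068 CPM in the vehicle tumors and 932, 1317 and 1168 CPM in the TP-18 tumors. Every TP-18 tumor was below every vehicle tumor, with TP-18 1 lowest. The means were 1934 ± 155 and 1139 ± 194 CPM (SD, n = 3 each), giving a log2 fold change of -0.76 ± 0.14 (SE, adjusted p = 0.0158). The call was lost without vehicle 2 (adjusted p = 0.0640) and without TP-18 3 (0.0622) and kept in the other 4 fits that left out a library. The gene lies at chr2:34772090-34776529 on GRCm38, in a span that overlaps Rabepk, so reads of the overlap may belong to either where strand was not used.

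Dnajb9 encodes ERdj4, a J protein of the ER lumen that works with BiP and is induced by ER stress. It had 62.3, 72.0 and 76.8 CPM in vehicle and 36.5, 49.2 and 46.8 CPM in TP-18 tumors. The order of tumors matched that of Hspa5 in both groups, and the groups did not overlap. The means were 70.4 ± 7.38 and 44.2 ± 6.74 CPM (SD, n = 3), giving a log2 fold change of -0.67 ± 0.13 (SE, adjusted p = 0.0188). This call was lost without vehicle 2 (0.0737) and without TP-18 3 (0.060). The gene lies at chr12:44205897-44210068.

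The other ER genes described here did not pass the test, and they are not a full list of the J proteins of the ER. Dnajc3, which encodes p58IPK and whose promoter holds the ER stress element printed above, had 125.7, 127.3 and 122.7 CPM against 115.9, 128.0 and 125.9 CPM, with overlapping groups and an adjusted p of 0.862. Its log2 fold change was -0.02 ± 0.07, and 0.12 on log2(FPKM + 0.1). Dnajc10, which encodes the reductase ERdj5, had 239, 212 and 213 CPM against 207, 212 and 223 CPM (log2 fold change -0.05 ± 0.08, adjusted p = 0.716). Dnajb11, which encodes the BiP partner ERdj3, had a log2 fold change of -0.07 and an adjusted p of 0.636, and Hspa13, a microsomal HSP70 relative, of -0.28 with an adjusted p of 0.0858. Of the ER chaperones named here, Hspa5 and Dnajb9 alone were called, and whether their changes differ from those of Dnajc3 or Dnajc10 was not tested.

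Hspa9 encodes mortalin, which pulls proteins into the mitochondrial matrix and folds them there. It had 1534, 1827 and 1843 CPM in vehicle and 1118, 1295 and 1240 CPM in TP-18 tumors, with no overlap. The means were 1735 ± 174 and 1218 ± 90.6 CPM (SD, n = 3), with a log2 fold change of -0.51 ± 0.11 (SE) and an adjusted p of 0.0251. The call was kept without vehicle 1 (0.00717) and lost without any other single library (vehicle 2 0.0950, vehicle 3 0.0516, TP-18 1 0.0869, TP-18 2 0.0565, TP-18 3 0.0918).

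Hspd1 (chr1:55077833-55088243) encodes HSP60, which folds proteins in a closed chamber capped by the product of its neighbour Hspe1. Hspd1 had 736.6, 827.8 and 851.8 CPM in vehicle and 578.7, 616.0 and 622.5 CPM in TP-18 tumors, again without overlap. The means were 805 ± 60.8 and 606 ± 23.6 CPM (SD, n = 3), with a log2 fold change of -0.41 ± 0.09 (SE) and an adjusted p of 0.0260. As for Hspa9, the call held without vehicle 1 (0.00947) and was lost on removal of TP-18 3 (0.0904), vehicle 2 (0.0950), TP-18 2 (0.0692), vehicle 3 (0.0562) or TP-18 1 (0.0927). It was also lost on log2(FPKM + 1), with an adjusted p of 0.0533. Of the 50-base stretches of Hspd1 transcripts 42.1% also occur in other genes, pseudogenes and Hspe1 among them. This is a share of sequence and not of reads, and how far it makes the counts uncertain is not known.

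Hspe1 encodes HSP10, the lid of the HSP60 chamber. It had 133, 176 and 208 CPM in vehicle and 112, 132 and 115 CPM in TP-18 tumors. TP-18 2 nearly reached vehicle 1, and the groups did not overlap in CPM. In FPKM they did, with 178 in TP-18 2 and 173 in vehicle 1. The log2 fold change was -0.53 ± 0.16 with an adjusted p of 0.0703, so Hspe1 was not called, although DESeq2 gave an adjusted p of 0.0129. Hspd1 and Hspe1 made up 58.4% ± 3.67 and 41.6% ± 3.67 of their summed FPKM in vehicle and 60.1% ± 1.83 and 39.9% ± 1.83 in TP-18 tumors. Of the 50-base stretches of Hspe1 22.8% occur in other genes, Hspd1 among them, and the spans of Hspd1 and Hspe1 overlap. How reads were divided between this pair is therefore uncertain. Other mitochondrial members include Dnaja3 (log2 fold change -0.23, adjusted p = 0.122), a partner of mortalin, and Dnajc19 (-0.25, 0.335), a part of the protein import motor. They also include Dnajc15 (-0.25, 0.121), Dnajc11 (-0.16, 0.186) and Dnajc30 (-0.05, 0.812). None of these was called, and the list is not meant as complete.

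Dnajc13 (chr9:104151597-104263608), the only member called higher, encodes RME-8, a J protein on endosomes that takes part in sorting of membrane cargo. It had 81.8, 95.6 and 93.9 CPM in vehicle and 113.1, 118.2 and 118.2 CPM in TP-18 tumors, with no overlap and little spread in the TP-18 group. The log2 fold change was 0.37 ± 0.08 (SE, adjusted p = 0.0287). The call held without vehicle 1 (0.0263) or vehicle 3 (0.0367) and was lost on removal of TP-18 3 (0.106), vehicle 2 (0.0627), TP-18 2 (0.0836) or TP-18 1 (0.0764).

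**Figure D3:**
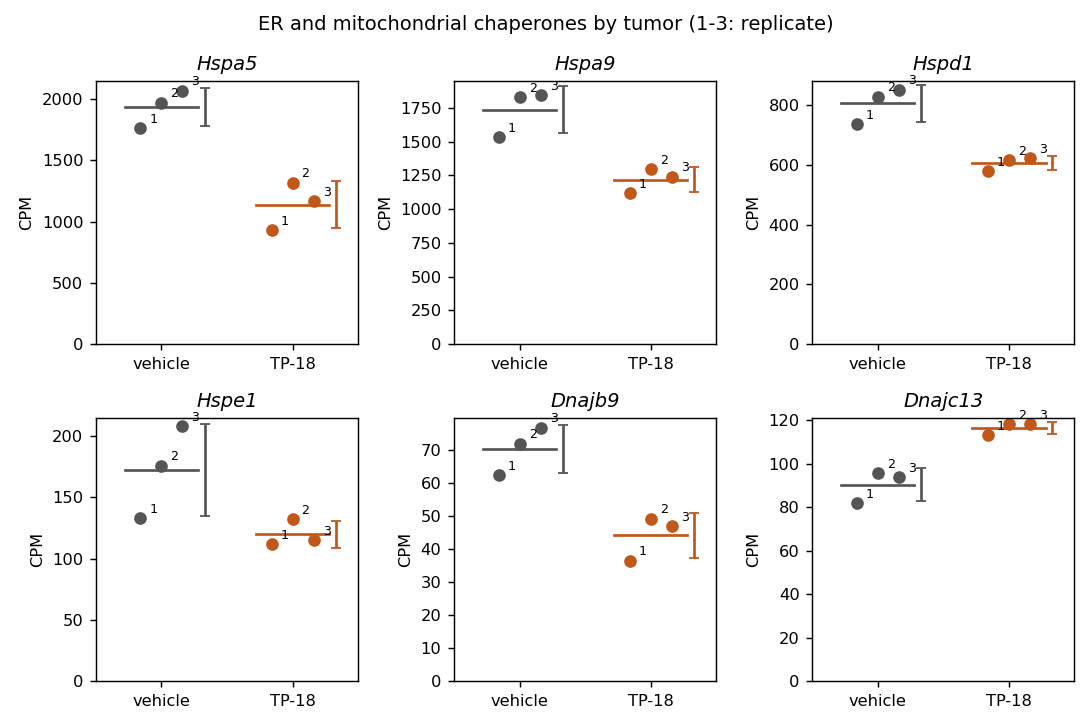
CPM (y axis from 0) of Hspa5, Hspa9, Hspd1, Hspe1, Dnajb9 and Dnajc13 in each tumor, numbered by replicate, with the group mean as a line and the SD (n = 3) as a bar. The vehicle tumors lie above the TP-18 tumors for all but Dnajc13, and Hspe1 is the 1 gene shown that was not called.

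The cytosolic HSP70 genes showed no call. Hspa8 had 1576, 1706 and 1745 CPM in vehicle and 1807, 1497 and 1527 CPM in TP-18 tumors. TP-18 1 was the highest of all 6 and the other TP-18 tumors the lowest. The log2 fold change was -0.06 ± 0.11 with an adjusted p of 0.756, and 0.08 on both FPKM scales, so it had no stable direction. Of its 50-base stretches 39.4% occur in other genes.

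Hspa1b and Hspa1a encode nearly identical stress-inducible HSP70 proteins that are low in unstressed cells. Hspa1b had 14, 96.0 and 116.2 CPM in vehicle and 15.3, 26.4 and 11.1 CPM in TP-18 tumors. Vehicle 1 lay among the TP-18 tumors and the other vehicle tumors far above them. The log2 fold change was -2.10 ± 0.84 with an adjusted p of 0.174. Without vehicle 1 it was -2.58 with an adjusted p of 0.0245, while removal of another library gave an adjusted p of up to 0.388. Hspa1a had 1.08, 6.28 and 7.96 CPM against 1.75, 3.91 and 2.56 CPM (-0.90 ± 0.69, adjusted p = 0.434). Without vehicle 1 its log2 fold change was -1.36 with an adjusted p of 0.0391, and removal of another library gave up to 0.756. Leaving out the vehicle tumor nearest the TP-18 tumors widens the difference by that choice, so these fits lend no support to a change. Since 62.3% of the 50-base stretches of Hspa1b and 66.3% of those of Hspa1a occur in other genes, how reads were divided between them is uncertain.

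Vehicle 1 was the lowest vehicle tumor in other stress-inducible members as well. This order was not particular to them, since Hspa8, Hspa9, Hspd1, Dnaja2 and Dnajc8 also had their lowest vehicle level in vehicle 1. In others, such as Dnajc10 and Hspb6, vehicle 1 was not the lowest. Hsph1, an HSP110 that acts as an exchange factor for HSP70, had 106.4, 231.8 and 312.2 CPM in vehicle and 121.8, 181.3 and 101.4 CPM in TP-18 tumors (log2 fold change -0.69 ± 0.44, adjusted p = 0.356). Dnajb1, the inducible HSP40, had 115.4, 198.3 and 308.7 CPM against 109.3, 142.2 and 89.7 CPM (-0.87 ± 0.39, 0.202). For both, vehicle 1 overlapped the TP-18 tumors and vehicle 3 was the highest tumor. Dnajb4, a related cytosolic J protein, had 47.3, 95.7 and 95.2 CPM against 46.0, 56.4 and 46.0 CPM (-0.68 ± 0.28, 0.164). Without vehicle 1 its log2 fold change was -0.93 with an adjusted p of 0.00294, and removal of another library gave up to 0.362. Dnaja1, a cytosolic HSP40 of type A, had 166, 231 and 269 CPM against 151, 163 and 148 CPM (-0.53 ± 0.16, 0.0740). Its log2 fold change was -0.68 with an adjusted p of 0.00491 without vehicle 1, and removal of another library gave up to 0.206. Of the 50-base stretches of Dnaja1 20.6% occur in other genes.

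Among the vehicle tumors the highest level over the lowest was 8.30 for Hspa1b, 7.36 for Hspa1a, 2.94 for Hsph1, 2.67 for Dnajb1 and 2.02 for Dnajb4. A ratio as high as that of Hspa1b was seen in 2.03% of tested genes. Of the 60 tested members 6 had a ratio of at least 2, the sixth being Hspb1, or fewer than the 16% among all tested genes, and the median ratio was 1.21 over members and 1.27 over all genes. The spread thus sat in few members. Among the companion genes Hsp90aa1, the inducible HSP90, also had its lowest vehicle level in vehicle 1 and its highest in vehicle 3, with 590, 865 and 1200 CPM in vehicle and 665, 719 and 630 CPM in TP-18 tumors (log2 fold change -0.40, adjusted p = 0.308), as had Cryab, a small HSP of the crystallin type, with 19.1, 53.3 and 94.1 CPM against 21.7, 40.8 and 23.2 CPM (-0.96, 0.357).

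Some marker lists were likewise lowest in vehicle 1 and highest in vehicle 3 among the vehicle tumors. The summed CPM of 7 hypoxia genes was 2907, 4743 and 7047 in vehicle and 3351, 3606 and 2712 in TP-18 tumors, and that of red blood cell genes was 66.3, 183 and 395 against 14.8, 33.9 and 17.6. Neutrophil markers summed to 31.8, 53.9 and 322 CPM against 57.6, 84.1 and 75.6 CPM. Immediate early genes were not, with 1272, 1031 and 1177 CPM against 662, 628 and 722 CPM. The part of any of these in the HSP and DNAJ levels was not tested.

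Leaving out vehicle 1 raised the calls lower to 8 of 23 HSP genes (Hspa1a, Hspa1b, Hspa4l, Hspa5, Hspa9, Hspb8, Hspd1 and Hspe1) and to 5 DNAJ genes (Dnaja1, Dnaja2, Dnajb4, Dnajb9 and Dnajc8), beside 6.99% of all tested genes, with Dnajc13 still higher beside 8.31%. Without vehicle 3, Hspa5, Dnajb9 and Dnajb12 were lower (2.98% of all genes) and Dnajc13 was higher (6.4%). Without TP-18 1 or TP-18 2, the members called were Hspa5 and Dnajb9, both lower, beside 1.07% and 1.49% of all genes lower and 4.08% and 3.51% higher. Without vehicle 2 no member was called, beside 0.766% of all genes lower and 2.81% higher, and the same held without TP-18 3, beside 0.77% lower and 2.69% higher.

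**Figure D4:**
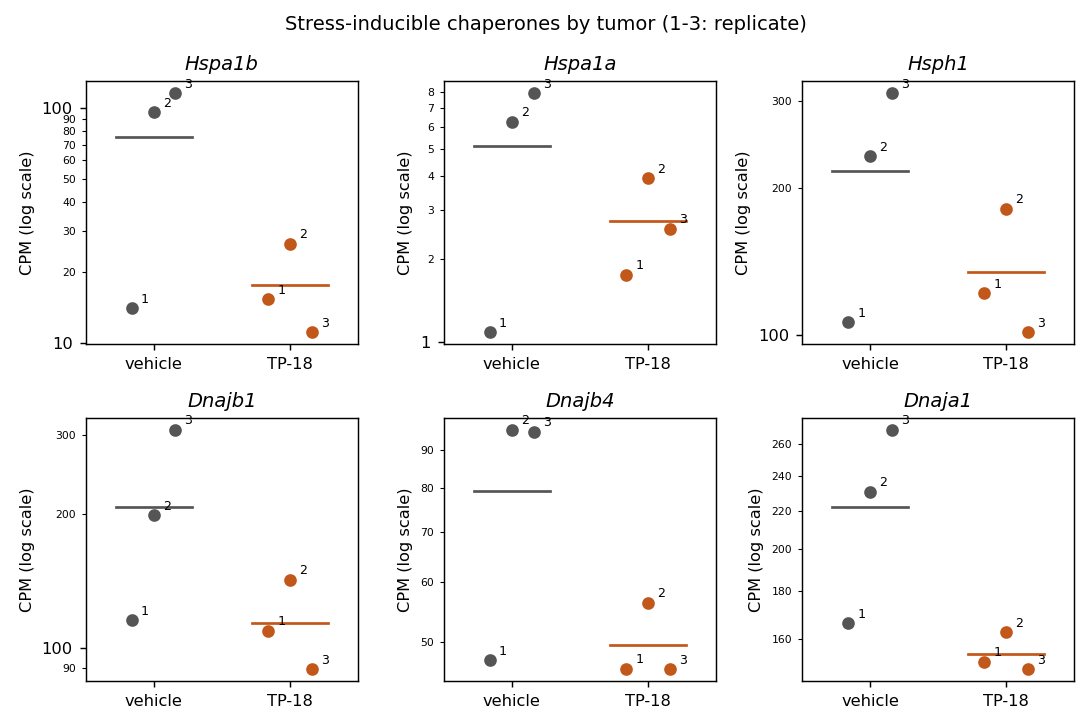
CPM (y axis, log scale) of Hspa1b, Hspa1a, Hsph1, Dnajb1, Dnajb4 and Dnaja1 in each tumor, numbered by replicate, with the group mean as a line. Vehicle 1 lies at or near the level of the TP-18 tumors, below the other vehicle tumors, in all 6 genes.

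Small heat shock proteins form oligomers that bind unfolding proteins without ATP. Hspb8, which works with BAG3 in clearing misfolded proteins and made up 72.5% ± 2.86 of HSPB FPKM in vehicle tumors, had 94.6, 130.6 and 137.9 CPM in vehicle and 81.1, 92.5 and 78.6 CPM in TP-18 tumors. The groups did not overlap in CPM, with TP-18 2 just below vehicle 1. In FPKM they overlapped, with 52.6 in TP-18 2 and 52.0 in vehicle 1. Its log2 fold change was -0.53 ± 0.15, and at an adjusted p of 0.0534 it was the member just outside the threshold. The adjusted p was 0.0083 by DESeq2, 0.0487 with upper-quartile scaling and 0.00516 without vehicle 1, and up to 0.169 without another library. Hspb6, a small HSP of muscle, had 27.4, 28.6 and 24.2 CPM against 21.4, 21.9 and 18.2 CPM (-0.38 ± 0.11, adjusted p = 0.0621).

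Hspb1, the gene of HSP25 and often the leading small HSP of stressed cells, was low here, with 0.712, 1.26 and 2.09 CPM in vehicle and 1.48, 1.53 and 2.51 CPM in TP-18 tumors (0.45 ± 0.44, adjusted p = 0.536). The groups overlapped, and 50.1% of its 50-base stretches occur in other genes. Hspb11, a part of the intraflagellar transport machinery, had 11, 12.6 and 18.1 CPM against 10.1, 12.6 and 8.36 CPM (-0.43 ± 0.23, 0.247). The 2 largest positive log2 fold changes among members came from rare transcripts. Hspa12a, a distant HSP70 relative, had 21, 24 and 24 counts in vehicle and 35, 51 and 78 in TP-18 tumors (1.06 ± 0.38, adjusted p = 0.106). Hspb2, known from skeletal and heart muscle, had 9, 12 and 9 counts against 18, 22 and 23 (0.88 ± 0.39, 0.175). Neither overlapped between groups, and Hspb2 was called on log2(FPKM + 1), with an adjusted p of 0.0252, and on log2(FPKM + 0.1), with 0.0361.

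Beside Hspb2, the summed CPM of 14 skeletal muscle markers was 29.6, 40.8 and 13.7 in vehicle and 131, 72.0 and 144 in TP-18 tumors, higher in every TP-18 tumor. Their part in the Hspb2 level was not tested. Of the 50-base stretches of Hspb2 24.4% also occur in other genes, its neighbour Cryab among them. Hspb6, also a gene of muscle, had no overlap between groups in CPM either, with the TP-18 tumors lower, but its groups overlapped in FPKM.

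The remaining DNAJ genes named by abundance did not pass either. Dnaja2 had 201, 217 and 220 CPM in vehicle and 185, 176 and 180 CPM in TP-18 tumors, without overlap (log2 fold change -0.24 ± 0.07, adjusted p = 0.0647). Its adjusted p was 0.0471 without vehicle 1 and up to 0.191 without another library. Dnajc8 had 96.8, 109.2 and 107.7 CPM against 84.2, 92.3 and 82.3 CPM, also without overlap (-0.28 ± 0.08, 0.0640). Here the adjusted p was 0.0388 without vehicle 1 and up to 0.213 without another library. Over the 24 DNAJC genes tested, log2 fold changes ran from -0.28 to 0.60, 16 of them negative, and 23 were not called. These genes share the J domain and little else, and most are not induced by heat.

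Companion genes of the same machinery were taken from 8 lists with 90 tested genes, of which 15 were called lower and 0 higher, beside 5.26% and 7.09% of all tested genes, with a median log2 fold change of -0.23. At an unadjusted p under 0.05 there were 44 lower and 4 higher, beside 14.6% and 15.3% of all genes. DESeq2 called 30 lower and 1 higher, beside 8.74% and 10.3%, and limma-voom 14 lower and 0 higher, beside 5.15% and 7.24%. The 4 HSP90 genes (median -0.32) and 19 cochaperones of HSP90 and HSP70 (-0.12) held no call by edgeR or limma-voom, with 2 and 5 lower and 0 and 2 higher at an unadjusted p under 0.05, while DESeq2 called 1 HSP90 gene lower and, of the cochaperones, 2 lower and 1 higher. Of the 5 heat shock factors and regulators none was called (median -0.13, 2 lower at an unadjusted p under 0.05 and 1 by DESeq2), and Hsf1, the main factor of the heat shock response, had a log2 fold change of 0.04 with an adjusted p of 0.845.

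Nucleotide exchange factors of HSP70 on this list had a negative log2 fold change in 10 of 10, with a median of -0.29. Of these 2 were called lower, beside 5.26% of all tested genes. The list was drawn apart from the members, so it lacks Hsph1 (-0.69), Hspa4l (-0.28), Hspa4 (-0.01) and Hspbp1 (0.08), none of them called. The 10 of 10 thus holds for this list alone. Bag1 had 119.7, 132.3 and 131.7 CPM in vehicle and 99.98, 105.3 and 107.0 CPM in TP-18 tumors (-0.30, adjusted p = 0.0402). Grpel2, an exchange factor of mortalin, had 26.0, 28 and 28.7 against 19.0, 22.9 and 21.7 CPM (-0.38, 0.0498). Both calls held without vehicle 1 and were lost without each of the other 5 libraries, with adjusted p from 0.0753 to 0.15. Subunits of TRiC, the cytosolic chaperonin that folds actin and tubulin, and of prefoldin, which delivers them, were negative in 14 of 14 with 5 called lower and a median of -0.27. They include Pfdn2 (-0.39, 0.0170), Cct2 (-0.37, 0.0224), Pfdn5 (-0.41, 0.0248) and Pfdn1 (-0.36, 0.0281). Pfdn2 kept its call in 3 of the 6 fits without a library, Cct2 in 2, and Pfdn5 and Pfdn1 in 1 each, with adjusted p of up to 0.109 in the others.

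The ER stress list held the companion genes with the largest changes. Of its 26 tested genes 6 were called lower, beside 5.26% of all tested genes, and the median log2 fold change was -0.26. Ddit3, the gene of the stress factor CHOP, had 133, 148 and 129 CPM in vehicle and 44.0, 64.1 and 61.2 CPM in TP-18 tumors, with no overlap (log2 fold change -1.28 ± 0.14, adjusted p = 0.00335). Ppp1r15a, the gene of GADD34, which reverses the translational arrest of the stress response, had 247, 254 and 232 CPM against 82.7, 113 and 108 CPM (-1.27 ± 0.12, 0.00182). Both passed without any single library. Herpud1 (-0.54, 0.0234), which takes part in degradation of ER proteins, and Manf (-0.48, 0.0237), a secreted ER stress protein, each passed in 3 of the 6 fits without a library, with adjusted p of up to 0.0845 and 0.0951.

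In the mitochondrial quality control list 2 of 11 genes were called lower, beside 5.26% of all tested genes, and the median log2 fold change was -0.15. Lonp1, the main protease of the matrix, had 263, 260 and 282 CPM in vehicle and 153, 201 and 177 CPM in TP-18 tumors (-0.60 ± 0.11, adjusted p = 0.0147) and lost the call without TP-18 3 alone (0.0622). Clpb, a mitochondrial disaggregase, had 49.8, 48.8 and 46.6 CPM against 35.8, 38.0 and 41.3 CPM (-0.34, 0.0390) and was not called without any 1 of the 6 libraries, with adjusted p from 0.0604 to 0.136. TP-18 1 had the lowest level of Hspa5, Hspa9, Hspd1, Dnajb9, Ddit3, Ppp1r15a, Lonp1 and Clpb among the 6 tumors. The list counts and medians describe these tumors and were given no test of their own.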

How the data were processed

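Per the submitters' processing notes, the authors used fastp, HISAT2, HTSeq and the build GRCm38. The sources used here do not give tool versions, strand or the handling of multi-mapped reads. Deposited counts are whole numbers per gene without normalization. The deposited FPKM are these counts over a gene length and the library total, checked in 15884 genes. Genes were matched by symbol, with RefSeq GRCm38.p6 for coordinates and promoters.

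Groups came from the labels (3 vehicle, 3 TP-18). Counts were tested in R 4.3.3 with edgeR 4.0.16, by the robust quasi-likelihood F test, two-sided, on group alone, after filterByExpr (minimum count 10, minimum total 15) and TMM scaling. TMM factors were 0.918 to 0.9995 in vehicle and 1.03 to 1.07 in TP-18 libraries. P-values were adjusted by Benjamini-Hochberg over 14189 genes, and calls are at 0.05. Fold changes, on the log2 scale, are positive where TP-18 was higher and use a prior count of 0.125. With 3 against 3 tumors an exact permutation test of a single gene cannot go below p = 0.10. Sequence sharing is the percent of a gene's 50-base stretches found in other genes of GENCODE M21. On simulated data for 14189 genes, 70 of 100 genes changed 2-fold and 89 of 100 changed 4-fold were recovered, with 16 false calls among the unchanged genes. The simulation changed far fewer genes than the 1753 called in the data, and as many up as down. Its recovery and false calls therefore need not hold for these data. The members called changed 1.29-fold (Dnajc13) to 1.70-fold (Hspa5), and recovery of changes of that size was not simulated.

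Alternatives were other scalings (RLE, upper quartile), a block on replicate numbers, other filters (none, or 1 CPM in 3 libraries), moderation that is not robust, removal of 1 library at a time, DESeq2 1.42.0, limma-voom and limma's trend test on log2 FPKM with pseudocounts of 1 and 0.1 (limma 3.58.1), and an adjusted p under 0.10. Members and lists were chosen with earlier results of these data known. Members named are those called or nearly called, the most abundant and the most changed, and some fixed by role, and of companion lists at most 4 genes by smallest p. Hspa1l, Dnajc28, Dnajb11, Dnajb12, Hspa13, Dnaja3, Dnajc19, Hspa2, Dnajc16, Hspa4 and Hspa4l lie outside that rule and were chosen after their values were seen. The same holds for Hspbp1, Dnajc11, Dnajc15, Dnajc30, Hsp90aa1, Cryab, Hsf1 and Epcam.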

Additional observations from a re-analysis of the deposited data

How the results depend on the processing

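With vehicle 1 to TP-18 3 left out in turn, HSP genes called lower numbered 0 to 8, DNAJ genes 0 to 5 lower and 0 to 1 higher, all genes 111 to 1023 lower and 388 to 1216 higher, and companion genes 3 to 23 lower and 0 to 1 higher, and no HSP gene was called higher. DESeq2 called 6 HSP, 5 DNAJ, 1240 of all and 30 companion genes lower, and 1 companion gene higher. On log2 FPKM with pseudocounts of 1 and 0.1, 1 HSP gene was called higher in each, 238 and 256 of all genes lower, and 3 companion genes lower and 2 higher in each. Without a filter 24 companion genes were lower. At an adjusted p under 0.10, 7 HSP and 5 DNAJ genes were lower, and 1413 of all genes lower and 1609 higher. With the replicate number as a block, which the labels do not tie to shared mice, 1 HSP gene was lower, 0 DNAJ genes higher, 231 of all genes lower and 547 higher, and 3 companion genes lower. Deviations of same-numbered tumors correlated at 0.242, -0.083 and -0.036, and TP-18 1 alone correlated best with its own number. The direction reversed for Hspa8 on both FPKM scales (0.0821 and 0.0822), for Dnajc10 without vehicle 1 (-0.0802 to 0.0272 over the 6 fits) and on FPKM (0.0937 and 0.0954), and for Dnajc3 without TP-18 1 (-0.0520 to 0.0171) and on FPKM (0.114 and 0.118). Dnajb11 and Hspa4, named in the text for turning with the scaling, were 0.07 and 0.14 on log2(FPKM + 0.1), and Hspa4 was 0.01 with upper-quartile scaling. The cause was not tested. Precision is limited by 3 tumors a group, and for genes under about 1 CPM by counting error.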

Other observations

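The marker lists gave these further counts. No cilia and testis marker was abundant enough to test. Of 5 smooth muscle and pericyte, 7 fibroblast, 2 adipocyte, 3 skin, 4 neutrophil and 4 endothelial markers tested, none was called by edgeR's quasi-likelihood test. At an unadjusted p under 0.05 there were 2 higher smooth muscle markers, 1 lower fibroblast marker and 1 higher adipocyte marker, and DESeq2 called 1 smooth muscle, 1 adipocyte and 1 endothelial marker higher and 1 fibroblast marker lower. Fibroblast markers summed to 2348, 2463 and 6418 CPM in vehicle and 2662, 4150 and 3688 CPM in TP-18 tumors. Of 5 proliferation markers 1 was called higher and of 7 hypoxia genes 1 was called lower, beside 7.09% higher and 5.26% lower of all tested genes. Of 2 epithelial markers tested none was called, with 1 higher and 1 lower at an unadjusted p under 0.05 and by DESeq2. By limma-voom 1 epithelial marker was higher.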
